A study of Mus musculus with 2 samples.

Results

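The 31 genes described here cover glycolysis, lactate handling and the response to low oxygen. They were chosen by symbol from a fixed list, and all 31 were found among the 32285 features of the count tables. The rule uses no measured value, but the list was made with earlier results of these data known. They were examined in droplet single-cell RNA data from the mouse aorta, 1 library from mice overexpressing Cept1 in endothelium and 1 from controls. Cept1 encodes an enzyme of the last step of phosphatidylcholine and phosphatidylethanolamine synthesis.

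Per the labels, all mice were male, on the C57BL6 background and homozygous for the Cept1fl/fl allele. The mice of the Cept1 library also carried VE-cadherin-Cre-ERT2 (Cept1fl/fl Cre+), a tamoxifen-inducible recombinase driven by an endothelial promoter, and the control mice were Cept1fl/fl Cre-. The treatment text has males of at least 8 weeks receiving 5 daily injections of 1 mg tamoxifen and 5 days of recovery, while the age label reads 6 to 8 weeks. It does not separate the genotypes, so whether control mice also received tamoxifen is only implied. The tissue ran from the aortic arch to the bifurcation, with 3 mice per condition, and was digested with collagenases, hyaluronidase and DNase at 37 °C for 1 hour. The labels leave unsaid how the 3 aortas went into 1 library and how cells were sorted. Since each group is 1 library, no test between groups is possible, and genotype, animal, dissection and library preparation cannot be told apart.

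The tables held 17728 barcodes with 95735360 unique molecular identifiers (UMIs, counts of single RNA molecules) for Cept1 and 14349 barcodes with 88220524 UMIs for control. Barcodes needed 500 genes or more, and a mitochondrial share of 10% or less, to be kept, 11168 and 8729, with medians of 6438.5 and 6735 UMIs. Of the barcode sequences, 74 occurred in both libraries, among them 46 and 45 kept cells. Kept cells were assigned to a class by marker UMIs, so a class name below stands for cells gated on its markers, and 10.1% and 17.6% of kept cells stayed in no class. The gates held 1538 and 748 endothelial cells (Cept1 library first), 5315 and 3726 fibroblasts, 699 and 591 smooth muscle cells, 1902 and 926 myeloid cells, 124 and 103 neutrophils, 204 and 538 T or NK cells, 145 and 437 B cells, and 58 and 69 Schwann cells. These are wall and immune cells, as the tissue label implies. Cells of the Cept1 library were shallower in the large wall classes, with median UMIs of 6815 against 7675.5 in endothelial cells, 4987 against 6240.5 in fibroblasts and 10620 against 15268 in smooth muscle cells.

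Glycolysis turns glucose into pyruvate in the cytosol. Pyruvate can be reduced to lactate and exported, or enter mitochondria. At normal oxygen, prolyl hydroxylases mark the alpha subunits of the hypoxia-inducible factors (HIF) for destruction. At low oxygen these subunits persist and drive glucose transporters, most glycolytic enzymes, lactate export and regulators of mitochondria and collagen. Endothelial cells are known to rely on glycolysis for much of their ATP, also where oxygen is plentiful, and neutrophils and activated macrophages are glycolytic as well.

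The upstream sequences of 5 members are shown because they carry ACGTG, the core letters of the HIF response element, and because these genes stand at both ends of the results in Arg1-positive myeloid cells below. Each line gives the 250 bases before the annotated start from the RefSeq promoter table (GRCm38.p6), cut back to 186 in Ddit4, where the others lie in an annotated UTR (GENCODE). Of the bases shown, 17 in Ankrd37 and 14 in Slc16a3 also lie in an annotated UTR, and both stretches lie inside the gene as annotated there. All run 5′ to 3′ on the gene's strand, with ACGTG or its reverse complement CACGT in capitals.
Pgk1, chrX:106186850-106187099, plus strand: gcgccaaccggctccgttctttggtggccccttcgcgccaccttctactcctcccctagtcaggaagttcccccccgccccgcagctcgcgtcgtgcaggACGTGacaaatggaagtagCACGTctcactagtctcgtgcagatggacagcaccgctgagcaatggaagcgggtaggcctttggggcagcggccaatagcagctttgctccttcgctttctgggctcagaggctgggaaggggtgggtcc
Slc16a3, chr11:120948817-120949066, plus strand: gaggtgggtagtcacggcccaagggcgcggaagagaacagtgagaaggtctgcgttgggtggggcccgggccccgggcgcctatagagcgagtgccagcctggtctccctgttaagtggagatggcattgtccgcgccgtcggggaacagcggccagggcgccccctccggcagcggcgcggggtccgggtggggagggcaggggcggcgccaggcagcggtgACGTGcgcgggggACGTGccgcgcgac
Ankrd37, chr8:45999851-46000100, minus strand: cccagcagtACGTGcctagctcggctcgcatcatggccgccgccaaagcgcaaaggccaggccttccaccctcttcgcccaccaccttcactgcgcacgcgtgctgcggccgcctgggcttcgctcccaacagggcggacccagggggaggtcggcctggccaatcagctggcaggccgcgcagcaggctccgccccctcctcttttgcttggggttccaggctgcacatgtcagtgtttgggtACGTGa
Bnip3, chr7:138909507-138909756, minus strand: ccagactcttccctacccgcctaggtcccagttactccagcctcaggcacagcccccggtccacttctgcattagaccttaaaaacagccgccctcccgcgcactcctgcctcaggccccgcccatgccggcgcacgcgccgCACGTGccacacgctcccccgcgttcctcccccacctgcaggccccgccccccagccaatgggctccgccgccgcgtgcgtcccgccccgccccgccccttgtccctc
Ddit4, chr10:59951835-59952020, minus strand: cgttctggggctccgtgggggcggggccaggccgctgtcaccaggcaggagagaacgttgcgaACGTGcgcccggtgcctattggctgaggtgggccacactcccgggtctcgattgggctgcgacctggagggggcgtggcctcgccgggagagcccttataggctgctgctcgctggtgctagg

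Of the 31 members, 29 had an entry in that table (all but Epas1 and Ndrg1), with 41 promoters of 300 bases (250 before to 50 after the start). ACGTG was searched on both strands, and a CACGTG counts as a match on each. It was present in 24 of the 41 member promoters (58.5%) and in 6447 of all 32851 promoters of the same length (19.6%). By gene, 21 of 29 members (72.4%) had a match in at least 1 promoter, against 5886 of 27025 genes (21.8%). The longer palindrome CACGTG, which is also an E-box, was in 14.6% of member promoters and 7.15% of all promoters. Base composition was not matched in these shares, and a match is a string of letters in a window, not a bound site. The first base of the match lay 150 and 131 bases before the start in Pgk1, 27 and 14 before it in Slc16a3, 241 and 6 before it in Ankrd37, 108 and 107 before it in Bnip3, where the CACGTG is read on both strands, and 187 before it in Ddit4.

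Levels were computed as CPM: the UMIs of a gene summed over the cells of a class and library, divided by all UMIs of that class and library and scaled to the same total. They are compared between classes for 1 gene at a time and not between genes, because capture differs between transcripts. Over 13 classes and subtypes with at least 50 cells in each library, 23 of the 31 members had their highest level in the same class in both libraries. All endothelial and all myeloid cells are ranked beside their own subtypes, so the 13 overlap. Among these 13, the tail of glycolysis and lactate export peaked in neutrophils. Slc16a3, the lactate exporter of glycolytic cells, stood at 739 CPM in neutrophils of the Cept1 library and 402 in those of the control library. Of the 13 classes, the next were at 21.7 CPM (all myeloid cells) and 17.6 CPM (inflammatory macrophages). Lineages and subtypes with under 50 cells in a library are outside this ranking, and some exceed the highest class named for a member. For Slc16a3, 2 of them were higher than those next classes, monocytes at 84.5 and 114 CPM and Arg1 myeloid cells of the Cept1 library at 276 CPM. Gapdh reached 1130 and 1036 CPM in neutrophils, and smooth muscle cells came next of the 13 with 506 and 555. Outside the 13, monocytes had 818 and 797 CPM, and Arg1 myeloid cells of the Cept1 library had 1708 CPM, above its neutrophils. Pkm, the pyruvate kinase of most adult cells, was at 578 and 491 CPM in neutrophils and at 254.5 and 305.5 in smooth muscle. Of the 13, Aldoa, Gpi1, Pgk1, Pgam1, Eno1, Ldha and Pfkfb4 were also highest in neutrophils in both libraries. Arg1 myeloid cells of the Cept1 library exceeded its neutrophils for Aldoa (763 against 521 CPM), Pgk1 (529 against 183.5) and Pgam1 (433 against 139). The same held for Eno1 (336 against 187) and Ldha (560 against 247), while Gpi1 was level (323 and 322) and Pfkfb4 lower (55.2 against 118). Mast cells had 445 and 458 CPM of Ldha, against 247 and 294 in neutrophils.

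Other members were led by wall cells. Epas1, which encodes the HIF alpha subunit known from endothelium, reached 991 and 1203 CPM in arterial endothelial cells and 937 and 1021 in capillary ones, and was lowest in B cells at 2.42 and 2.29 CPM. Hif1a had no such spread, with 70.5 and 63.4 CPM in fibroblasts, its lowest class. Egln3, a HIF prolyl hydroxylase that is itself a hypoxia target, was highest in lymphatic endothelial cells (43.7 and 46.3 CPM). Ldhb, the lactate dehydrogenase subunit favoured by oxidative tissue, was highest in Schwann cells (186 and 307 CPM) and next in smooth muscle (78.0 and 86.9). Ndrg1, a stress gene mutated in a hereditary neuropathy, was also highest in Schwann cells (642 and 1317 CPM) and next in lymphatic endothelial cells (584 and 582). The collagen prolyl hydroxylase subunits P4ha1 (127 and 133 CPM) and P4ha2 (66.1 and 66.1 CPM) were highest in fibroblasts. Pfkm, the muscle phosphofructokinase, was highest in smooth muscle (24.4 and 26.4 CPM), as was Tpi1 (114 and 148 CPM). Hk2, the inducible hexokinase, was highest in inflammatory macrophages (101 and 121 CPM), and Hk1 in capillary endothelial cells (60.5 and 64.7 CPM). Mast cells, outside the 13 classes, had 124 and 90.4 CPM of Hk1. Slc16a1, a lactate and pyruvate transporter, and Pdk1, the kinase that restrains pyruvate dehydrogenase, were highest of the 13 in T or NK cells (30.1 and 37.4 CPM, and 48.6 and 67.4 CPM). Outside the 13, Slc16a1 was far higher in mesothelial cells (522 and 465 CPM from 210 and 143 UMIs), and also higher in mast cells (101 and 56.5 CPM). Ddit4, which restrains mTOR under stress, was highest in capillary endothelial cells (181 and 255 CPM). The 8 members whose highest class differed between the libraries were Slc2a1, Pfkl, Pfkp, Pfkfb3, Hif1a, Egln1, Bnip3 and Ankrd37. For Pfkl the 2 classes overlap, capillary endothelial cells in the Cept1 library (24.6 CPM) and all endothelial cells in control (24.8 CPM). Slc2a1, the basal glucose transporter, led in neutrophils of the Cept1 library (87.5 CPM) but in B cells of the control library (29.1 CPM), and Hif1a led in neutrophils of the Cept1 library (346 CPM) but in smooth muscle of the control library (151 CPM).

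**Figure D1:**
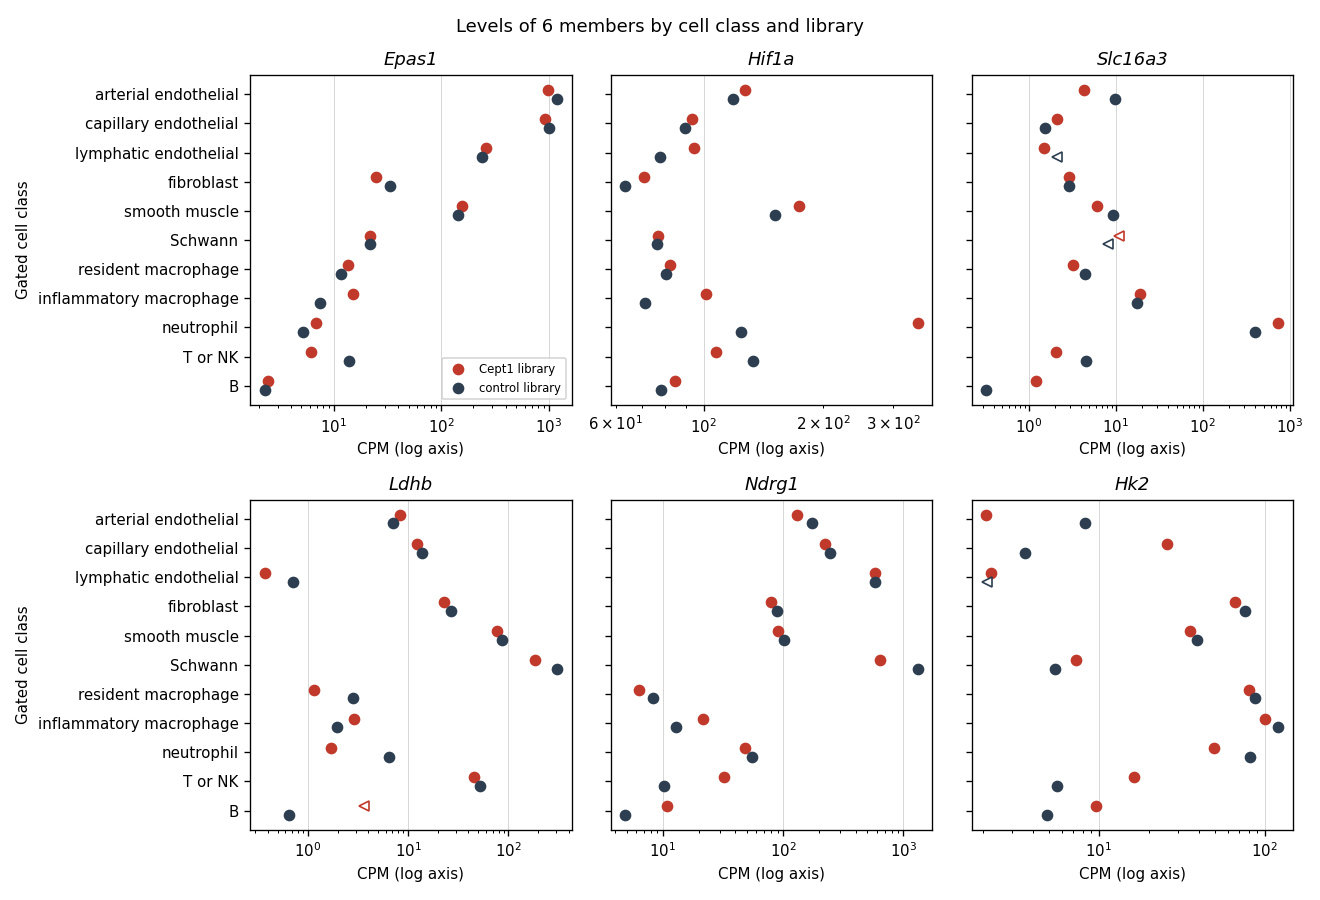
Levels of 6 members (CPM, log axis) in 11 gated classes and subtypes, with filled circles for the Cept1 library and the control library. Open triangles mark classes with 0 UMIs, drawn at the level of 3 UMIs. Of these classes, Slc16a3 is highest in neutrophils, Epas1 in endothelial cells, and Ldhb and Ndrg1 in Schwann cells, in both libraries.

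The targeted gene was checked first. Cept1 stood at 115.5 CPM (1516 UMIs) in endothelial cells of the Cept1 library and at 77.0 CPM (600 UMIs) in those of the control library, a log2 ratio of 0.58 (exact 95% Clopper-Pearson interval of the split of UMIs, 0.45 to 0.72). By subtype it was at 1.01 in capillary (0.73 to 1.29), 0.62 in arterial (0.42 to 0.83), 0.50 in venous (-0.21 to 1.22) and 0.22 in lymphatic endothelial cells (-0.13 to 0.57). In fibroblasts it was at 0.12, in smooth muscle at 0.28 and in myeloid cells at 0.20. All intervals given with ratios cover counting error only. Dennd2d and Dram2 overlap the Cept1 locus in antisense, and whether counting used strand is not stated in the labels.

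In the ratios that follow, a member counts as measured in a class with at least 50 UMIs over both libraries, and as past the threshold at 0.5 or more on the log2 scale in either direction, with the share of all measured genes past it beside the count. In endothelial cells 29 of 31 members were measured, 26 lower and 3 higher in the Cept1 library, with a median log2 ratio of -0.18 against -0.01 over all 12212 measured genes. None was past the threshold upward (4.38% of all measured genes were) and 5 were downward (6.23% of all measured genes were). The 5 were Slc16a3, Ddit4, Slc16a1, Pdk1 and Egln1. The shift over the members was thus wide but small, and the count past the threshold rested mainly on low genes of the lactate group.

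Of the glucose entry genes in endothelial cells, Slc2a1 was at 15.5 CPM in the Cept1 library against 19.1 CPM in control (-0.31, -0.62 to 0.01) and Hk1 at 50.4 and 58.4 CPM (-0.21, -0.39 to -0.04). Gpi1, glucose phosphate isomerase, was at 115 and 121 CPM (-0.08, -0.19 to 0.04). Hk2 was at 5.33 and 4.62 CPM (0.21, -0.39 to 0.83), with 65.7% of its 70 UMIs in the Cept1 library in 1 cell, and without the top cell of each library the ratio was -0.69. At the phosphofructokinase step, Pfkl was at -0.32 (-0.60 to -0.05), Pfkm at -0.10, Pfkp at -0.04 and Pfkfb3, the activator of phosphofructokinase tied to vessel sprouting, at 0.02 (-0.12 to 0.16). Pfkfb3 thus had near-equal levels, 87.2 and 86.3 CPM. Pfkfb4 had 29 and 16 UMIs and was not measured.

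All 7 lower glycolysis genes, from Aldoa to Pkm, had a ratio below 0 in endothelial cells, in a narrow range from -0.20 (Pkm, -0.30 to -0.09) to -0.06 (Eno1, -0.25 to 0.14), and all 7 were also below 0 after median-of-ratios scaling. Their summed level was 916 CPM in the Cept1 library against 1005 CPM in control. Gapdh, the most used reference gene among them, was at 306 and 329 CPM (-0.10, -0.18 to -0.03). Of the lactate group, Ldha, which reduces pyruvate to lactate, was at 130 and 163 CPM (-0.33, -0.43 to -0.22), and Ldhb at -0.05 (-0.55 to 0.45). Slc16a3 was at 3.12 and 5.01 CPM from 41 and 39 UMIs (-0.68, -1.35 to -0.01), and ran from -1.12 to -0.29 over the alternatives. Slc16a1 was at 3.81 and 5.65 CPM from 50 and 44 UMIs (-0.57, -1.18 to 0.05), an interval that includes 0. With arterial, capillary and venous cells weighted equally it was at 0.07, but venous cells held only 2 and 1 of its UMIs. Pdk1 was at 9.75 and 14.1 CPM (-0.53, -0.91 to -0.15), and at -0.27 with the same equal weights, with 5 and 6 venous UMIs. Lymphatic cells are not in that weighting.

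The HIF and oxygen sensing genes did not move as 1 group. Hif1a was higher in endothelial cells of the Cept1 library, at 113 CPM from 1486 UMIs against 102 CPM from 791 UMIs (0.16, 0.03 to 0.28), but at -0.05 with arterial, capillary and venous cells weighted equally. Epas1, which marks endothelium among these classes, was at 796 and 909 CPM (-0.19, -0.24 to -0.15). Egln1, the main HIF prolyl hydroxylase, was at 63.0 CPM from 827 UMIs and 91.1 CPM from 710 UMIs (-0.53, -0.68 to -0.39). Egln3 was at 12.8 and 14.5 CPM (-0.18, -0.53 to 0.18). Of the hypoxia targets, Ddit4 was at 82.7 CPM from 1085 UMIs and 130 CPM from 1011 UMIs (-0.65, -0.78 to -0.53). P4ha2 was at -0.38 (-0.59 to -0.17), Bnip3, a mitophagy receptor, at -0.31 (-0.58 to -0.03), Ndrg1 at -0.18 (-0.26 to -0.10) and P4ha1 at -0.10 (-0.29 to 0.09). Ankrd37 had 15 and 17 UMIs and was not measured.

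Endothelial cells were not made up alike in the libraries. Arterial cells were 56.3% (53.8 to 58.8, exact binomial interval) of the Cept1 class and 40.2% (36.7 to 43.9) of the control class, and capillary cells 323 of 1538 (19.0 to 23.1%) and 228 of 748 (27.2 to 33.9%). Ddit4 and Egln1 have low arterial levels, so their pooled levels move with these shares. Pooled Ddit4, at -0.65, was at -0.52 with arterial, capillary and venous cells weighted equally, at -0.86 with every cell weighted equally and at -0.44 under a stricter cell filter, which is inside the threshold. Ddit4 was at 34.8 and 39.5 CPM in arterial cells (-0.18, -0.49 to 0.13) and at 181 and 255 CPM in capillary cells (-0.49, -0.70 to -0.29). Lymphatic cells had 144 and 169 CPM of it (-0.23, -0.46 to 0.01) and venous cells 123 and 192 CPM (-0.64, -1.19 to -0.10). With every cell weighted equally, Ddit4 was at -0.70 in capillary and -0.80 in lymphatic cells, and under the stricter cell filter at -0.29 and -0.06. Egln1 was at 39.4 and 54.2 CPM in arterial (-0.46, -0.73 to -0.19), 138 and 169 CPM in capillary (-0.29, -0.53 to -0.05) and 82.2 and 91.1 CPM in lymphatic cells (-0.15, -0.47 to 0.18). Both genes were below 0 in each subtype where they were measured, and by less than in the pooled class on summed UMIs.

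Within arterial cells 26 members were measured, 6 higher and 20 lower, with a median of -0.20. None was past the threshold upward (5.8% of all measured genes) and 3 were downward (5.15% of all measured genes). These were Slc16a3 (33 UMIs in each library, 4.34 and 9.72 CPM, -1.16, -1.91 to -0.42), Pfkl (-0.59, -1.001 to -0.17, and -0.39 with a stricter gate) and P4ha2 (45.3 and 64.2 CPM, -0.50, -0.75 to -0.25, and inside the threshold under 5 of 8 alternatives). Slc2a1 was next lowest at -0.47 (-0.92 to 0.00). The highest were Pfkp at 0.24 (-0.14 to 0.62), Ldhb at 0.23, Pgk1 at 0.10 and Hif1a at 0.10 (-0.07 to 0.27). Hk2 had 16 and 28 UMIs and was under the minimum.

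Within capillary cells 25 members were measured, 4 higher and 21 lower, with a median of -0.14. Past the threshold were 1 upward and 2 downward (7.6% of all measured genes in each direction). Downward were Pfkfb3, at 39.6 and 69.3 CPM (-0.81, -1.24 to -0.39), and Pgk1, at 48.2 and 71.4 CPM (-0.57, -0.97 to -0.17). Pgk1 was at -0.14 with every cell weighted equally, so its call was lost. Pfkfb3 was at 0.09 (-0.09 to 0.26) in arterial cells, so its pooled value near 0 joins a lower capillary and a level arterial value. The member past the threshold upward was Hk2, at 2.84 (1.68 to 4.23) from 48 UMIs in the Cept1 library against 7 in control. Of those 48 UMIs, 95.8% came from 1 cell, and all 48 from cells with UMIs of the adipocyte genes Adipoq, Plin1 or Cidec. Such cells were 11.15% of Cept1 and 14.47% of control capillary cells, against 0.462% and 0.997% of arterial cells. Their RNA went the other way, with the 3 adipocyte genes summing to 132 CPM in Cept1 and 30.8 CPM in control capillary cells, all 3 past the threshold upward (median 1.83). Without the top cell of each library the Hk2 ratio was -1.26.

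Venous cells, only 62 and 43, had 12 measured members, 1 past the threshold upward (Hk1 at 0.81, -0.09 to 1.76; 11.8% of all measured genes) and 1 downward (Ddit4, above; 10.4%). In lymphatic cells 20 members split evenly, 10 higher and 10 lower, with a median of -0.01. Of these, 1 was past the threshold upward (Pfkl at 0.58, -0.20 to 1.41, and 0.14 under the stricter cell filter; 6.94% of all measured genes) and 0 downward (6.87%). The medians thus ran from -0.20 in arterial to 0.11 in venous cells, and whether the subtypes differ was not tested. The immediate early genes, which react to tissue digestion, were lower in 16 of 20 in pooled endothelial cells (median -0.27, summed 4577 and 5431 CPM). They were at -0.50 in capillary cells (16 of 19 lower) but at 0.18 in arterial cells (16 of 19 higher). RNA of 7 genes of other cell types was at 5513 and 4363 CPM in pooled endothelial cells (5171 and 3948 CPM without the top cells). The part of these genes in the results was not tested.

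**Figure D2:**
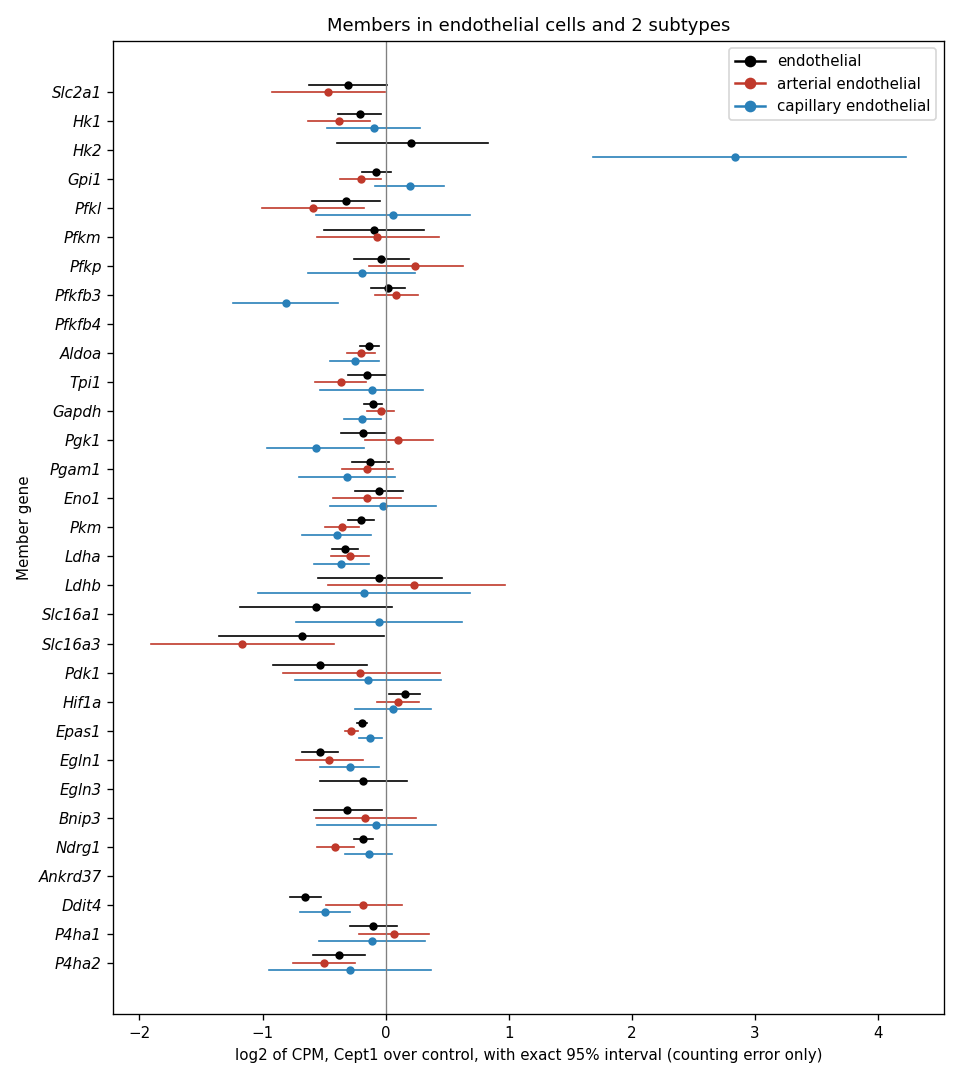
log2 ratio of CPM, Cept1 over control library, of each measured member in all endothelial cells (black), arterial cells (red) and capillary cells (blue), with exact 95% intervals that cover counting error only. Most points lie between -0.7 and 0.3, Hif1a lies just above 0, and the capillary point of Hk2 at 2.84 rests on 1 cell.

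Other genes of both pathways were read from lists that hold none of the members. Of 20 further glycolysis genes, 15 were measured in endothelial cells, 7 higher and 8 lower, with a median of -0.045, and 1 was past the threshold in each direction. The highest were the glucose transporter Slc2a3 (0.57, -0.30 to 1.50, 40 and 16 UMIs), Pfkfb2 (0.40, 0.03 to 0.77) and Pdk4 (0.31, -0.29 to 0.93), and the lowest Pdk2 (-0.66, -1.08 to -0.25), Tigar (-0.43) and Gbe1 (-0.31). Of 29 further hypoxia genes in the files, 27 were measured, 15 higher and 12 lower, with a median of 0.05. Among the highest were Stc2 (0.86, 0.00 to 1.81, 46 and 15 UMIs) and the collagen cross-linker Lox (0.41, 0.29 to 0.52). The lowest were the HIF inhibitor Hif1an (-0.32), Gbe1 (-0.31) and Egln2 (-0.29, -0.48 to -0.10). Both medians lay near the -0.01 of all measured genes, and the lists were not tested against the members.

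In fibroblasts the members lay close together and mostly below 0. Of 30 measured, 25 were lower and 5 higher, with a median of -0.22 against -0.04 over all measured genes. None was past the threshold upward (3.23% of all measured genes) and only Ddit4 was downward (6.12%), at 10.9 and 17.7 CPM (-0.69, -0.89 to -0.49). All 7 lower glycolysis genes were below 0, also after median-of-ratios scaling, with summed levels of 880 and 1072 CPM. Tpi1 was at 74.6 and 94.3 CPM (-0.34, -0.42 to -0.26) and Ldha at 106 and 133 CPM (-0.34, -0.40 to -0.27). Epas1 was at 24.7 and 33.3 CPM (-0.43, -0.57 to -0.30). The highest were Bnip3 (0.24, 0.09 to 0.38), Pfkl (0.16), Hif1a (70.5 and 63.4 CPM, 0.15, 0.06 to 0.24) and Pfkfb3 (0.09). With every cell weighted equally, Hif1a was at 0.03. Immediate early genes were lower in 15 of 20, with a median of -0.17. Their part was not tested.

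Smooth muscle cells had 30 measured members, 23 lower and 7 higher, with a median of -0.20 against -0.03. Past the threshold were 1 upward (4.46% of all measured genes) and 3 downward (5.39%). The 7 lower glycolysis genes were again all below 0, also after median-of-ratios scaling, with summed levels of 1434 and 1688 CPM. Tpi1 was at -0.37 (-0.50 to -0.25) and Aldoa at 331 and 410 CPM (-0.31, -0.38 to -0.24). Downward past the threshold were Pfkfb4 (30 and 60 UMIs, -0.71, -1.39 to -0.05), Slc16a3 (6.10 and 9.21 CPM, -0.60, -1.14 to -0.07) and Slc2a1 (17.8 and 25.8 CPM, -0.54, -0.85 to -0.23). Each came inside the threshold under an alternative, Pfkfb4 at -0.24 under the stricter cell filter, Slc16a3 at -0.47 and Slc2a1 at -0.44. Upward was Egln3 from 32 and 23 UMIs (0.77, -0.05 to 1.61), which was at 0.02 under that filter. Pfkfb3 was at 0.40 (0.08 to 0.73), Hif1a at 173 and 151 CPM (0.20, 0.09 to 0.31), P4ha1 at 0.19 and Pfkp at 0.17. Immediate early genes leaned the other way here, 11 of 20 higher, with a median of 0.11. RNA of 6 genes of other cell types was at 3010 and 1943 CPM (2610 and 1683 CPM without the top cells). The part of these genes was not tested.

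**Figure D3:**
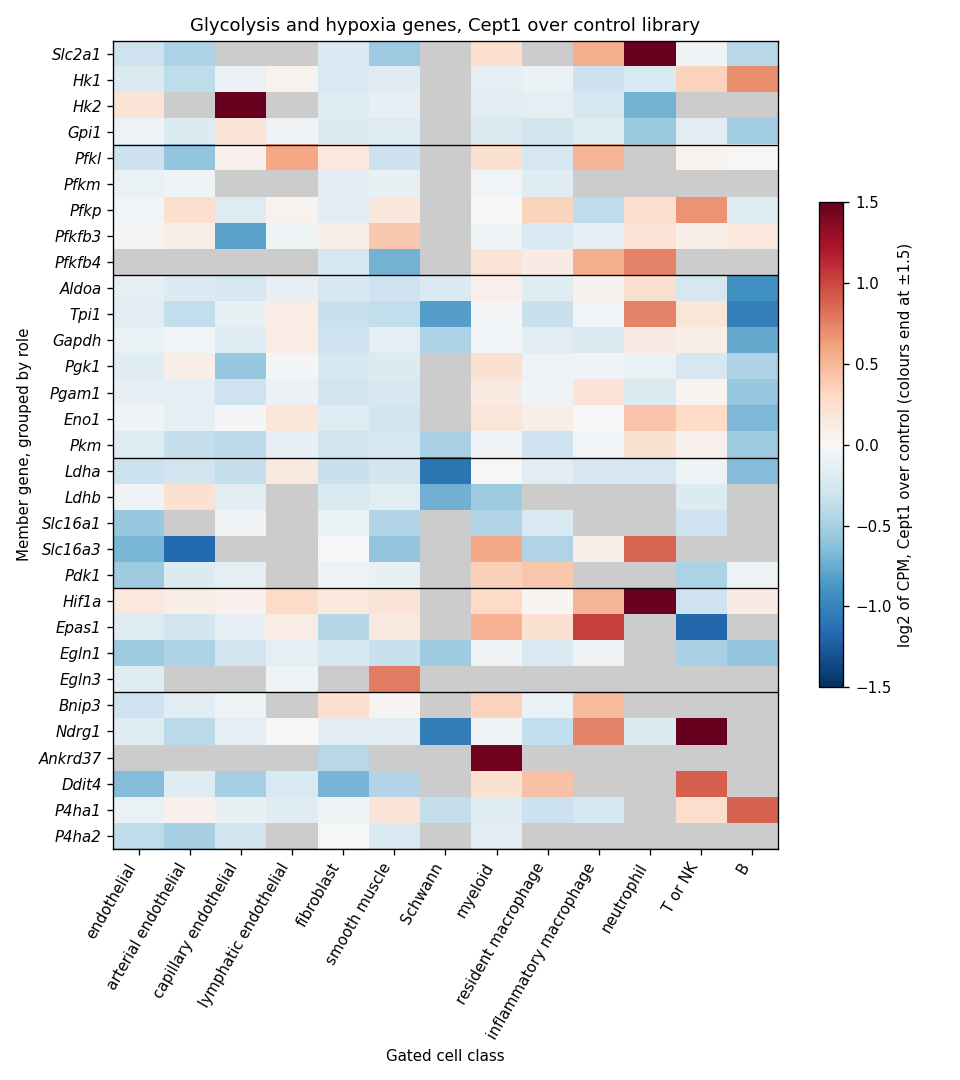
log2 ratio of CPM, Cept1 over control library, for the 31 members (rows, grouped by role) in 13 gated classes and subtypes (columns). Blue is lower and red higher in the Cept1 library, grey marks under 50 UMIs, and colours end at 1.5 in either direction. The lower glycolysis block from Aldoa to Pkm is blue in endothelial cells, fibroblasts, smooth muscle and B cells.

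In myeloid cells the members were split, with 15 of 30 higher and 15 lower and a median of 0.00 against 0.01. Past the threshold were 3 upward (6.53% of all measured genes) and 1 downward (5.88%). Upward were Ankrd37 (63 and 14 UMIs, 3.67 and 1.35 CPM, 1.44, 0.59 to 2.40), Slc16a3 (372 and 152 UMIs, 21.7 and 14.6 CPM, 0.57, 0.29 to 0.85) and Epas1 (13.5 and 9.34 CPM, 0.53, 0.18 to 0.88, but 0.22 with a 90% gate). Downward was Ldhb from 40 and 35 UMIs (-0.53, -1.22 to 0.16). Pdk1 was at 0.36, Bnip3 at 0.34 (0.07 to 0.62), Hif1a at 104 and 84.3 CPM (0.30, 0.18 to 0.42) and Pgk1 at 77.0 and 65.9 CPM (0.23, 0.09 to 0.36). Slc16a1 was at -0.45, Gpi1 at -0.22 (-0.31 to -0.13) and P4ha1 at -0.18.

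The UMIs of several of these members sat in a small set of cells with the arginase gene Arg1, a marker of a wound-type macrophage state. Cells with at least 2 Arg1 UMIs were 60 of 1902 myeloid cells in the Cept1 library (3.15%, 2.42 to 4.04, exact binomial interval) and 2 of 926 in the control library (0.216%, 0.0262 to 0.778). A further 24 and 7 such cells passed no lineage gate and are not in these values. Among fibroblasts, which should lack the gene, 5 of 5315 and 0 of 3726 cells had as many, and median UMIs of fibroblasts were lower (4987 and 6240.5, against 8331.5 and 10318.5 in myeloid cells). The 60 cells held 4.01% of the myeloid UMIs of the Cept1 library but 51.1% of its Slc16a3 UMIs, 55.6% of Ankrd37, 27.5% of Pgk1, 25.5% of Slc2a1 and 24.2% of Pgam1. Without the Arg1 cells, Slc16a3 was at 11.04 and 14.57 CPM, a ratio of -0.40 (-0.72 to -0.08), so its direction turned. All 7 lower glycolysis genes were then below 0, also after median-of-ratios scaling, from -0.27 for Gapdh (-0.33 to -0.21) to -0.05 for Eno1. Of 29 members measured without these cells, 22 were lower, with a median of -0.13, with 1 past the threshold upward (6.27% of all measured genes) and 2 downward (6.32%). Epas1 was still at 0.55 (0.20 to 0.91) and Hif1a at 0.14 (0.02 to 0.27), while Ldhb (-0.58) and Slc16a1 (-0.50, -0.91 to -0.09) were the 2 downward. In all myeloid cells, RNA of 6 genes of other cell types was at 4836 and 2525 CPM (4618 and 2104 CPM without the top cells). Epas1 is far higher in endothelial cells, and the part of RNA from other cells in its myeloid ratio was not tested.

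**Figure D4:**
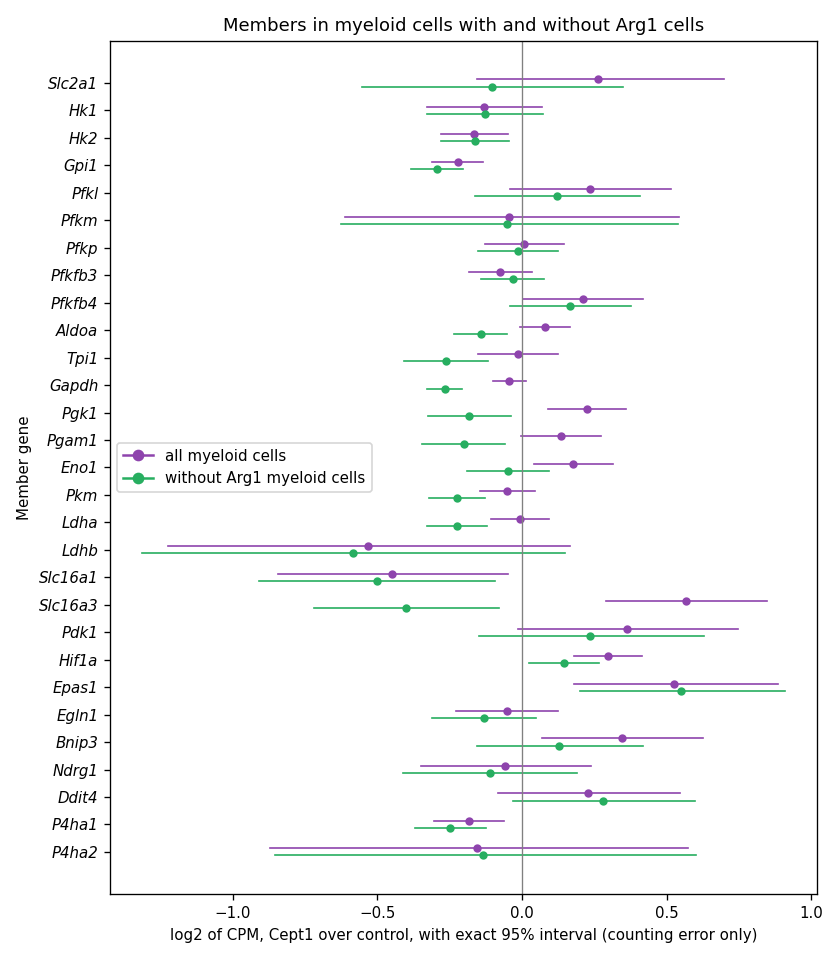
log2 ratio of CPM, Cept1 over control library, in all myeloid cells (purple) and without Arg1 myeloid cells (green), with exact 95% intervals (counting error only), for the members measured both ways. Slc16a3 goes from 0.57 to -0.40 and the 7 lower glycolysis genes all lie below 0 without these cells.

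Since only 2 Arg1 cells of the control library passed the myeloid gate, those of the Cept1 library were set beside the other 1842 myeloid cells of the same library. These are sums over cells of 1 library, so the values describe that library. Of 28 members with at least 50 UMIs, 21 were higher in Arg1 cells past the threshold (21.2% of all measured genes) and 3 lower (33.6%). The median was 1.72 against -0.12 over all measured genes. Cept1 itself was at 110.5 and 107.6 CPM (0.04, -0.31 to 0.37). Its ratio was 0.01 (-0.46 to 0.49) against the monocytes of that library but 0.62 (0.23 to 1.00) against its inflammatory macrophages.

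Slc16a3 stood at 276 CPM from 190 UMIs in Arg1 cells and 11.04 CPM from 182 UMIs in other myeloid cells, a log2 ratio of 4.64 (4.34 to 4.95). Ankrd37, a small nuclear HIF target, was at 50.9 and 1.70 CPM (4.90, 4.15 to 5.68). The cell with most UMIs held 5.26% of the Slc16a3 UMIs and 14.3% of the Ankrd37 UMIs of Arg1 cells, so neither rested on 1 cell. Slc2a1 was at 52.3 and 6.37 CPM (3.04, 2.45 to 3.60). These are the entry and exit steps of the route from glucose to lactate.

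All 7 lower glycolysis genes were higher in Arg1 cells, with summed levels of 4611 and 816 CPM. Pgk1 led with 529 and 58.1 CPM (3.19, 3.01 to 3.36), then Pgam1 with 433 and 56.8 CPM (2.93, 2.74 to 3.12). Tpi1, Gapdh, Eno1 and Aldoa lay between 2.40 and 2.53, and Pkm, the lowest, was at 521 and 122 CPM (2.09, 1.93 to 2.26). Ldha was at 560 and 107 CPM (2.38, 2.22 to 2.54), Pdk1 at 1.69 (0.98 to 2.34) and Slc16a1 at 1.12 from 10 UMIs. Every member enzyme from aldolase to Ldha thus lay above 2 on the log2 scale.

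The early steps were less uniform. Gpi1 was at 1.23 (1.03 to 1.43) and Pfkl at 1.74 (1.22 to 2.23), while Pfkp was at 0.45 (0.06 to 0.82) and Pfkfb4 at 0.79 (0.27 to 1.26). Hk1 (27.6 and 30.6 CPM, -0.15, -0.89 to 0.51) and Hk2 (84.3 and 88.6 CPM, -0.07, -0.48 to 0.31) were near 0. Pfkfb3 was lower, at 27.6 and 106 CPM (-1.95, -2.68 to -1.30). Pfkm had 3 UMIs in Arg1 cells.

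Among the regulators, Hif1a was at 358 CPM from 246 UMIs in Arg1 cells and 92.9 CPM in other myeloid cells (1.95, 1.74 to 2.14), Egln1 at 94.5 and 38.0 CPM (1.31, 0.92 to 1.68), and Epas1 at 7.27 CPM from 5 UMIs and 13.7 CPM (-0.92, -2.55 to 0.33). Of the targets, Bnip3 was at 84.3 and 17.0 CPM (2.31, 1.88 to 2.72), P4ha1 at 166 and 76.7 CPM (1.11, 0.82 to 1.39) and Ndrg1 at 1.05 (0.32 to 1.71) with 35% of its UMIs in 1 cell. Ddit4 had 1 UMI in the 60 Arg1 cells against 251 in the others, 1.45 and 15.2 CPM (-3.39, -8.70 to -0.90). It thus reached the minimum through the other cells. Its upstream sequence above carries ACGTG, as do those of Pgk1, Slc16a3, Ankrd37 and Bnip3. Any part of ACGTG in these levels was not tested. Egln3 had 18 UMIs in Arg1 cells and 8 in the others, under the minimum.

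Of the other hypoxia genes, 24 were measured, 12 past the threshold upward (21.2% of all measured genes) and 8 downward (33.6%). The highest was Vegfa, the main vascular growth factor, at 170 CPM from 117 UMIs against 6.79 CPM from 112 UMIs (4.65, 4.26 to 5.03), then the repressor Bhlhe40 (3.41, 3.19 to 3.63) and the lipid droplet gene Hilpda (2.63, 2.36 to 2.90). At the low end, Adm and Hif3a had 0 UMIs in Arg1 cells against 54 and 104 in the others, and Lox had 1 against 105. Of the other glycolysis genes, 15 were measured, 4 past the threshold upward and 3 downward, near or under the same shares of all genes. Pgm1 (1.80, 1.13 to 2.41) and Gys1 (1.73, 0.90 to 2.47), both of glycogen turnover, were highest, then Gbe1 (0.66, 0.27 to 1.04), and Hk3 (-0.90, -1.64 to -0.25), Slc2a3 (-0.85) and Pdk2 (-0.76, 2 UMIs) lowest. Immediate early genes were lower in Arg1 cells in 16 of 20, with a median of -0.87 and summed levels of 15090.3 and 27607.5 CPM. Against the monocytes of that library these genes went both ways, from -0.77 (Btg2) to 1.27 (Egr2). The part of cell handling in the comparison was not tested.

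The size of these ratios depended on the reference cells. The median was 1.79 against inflammatory macrophages but 1.17 against the 75 monocytes of the library, where 17 of 19 members were past the threshold upward (21.2% of all measured genes) and 1 downward (20.3%). Against monocytes, Slc16a3 was at 276 and 84.5 CPM (1.71, 1.29 to 2.15), Pgk1 at 1.78 (1.47 to 2.10), Gapdh at 1.06 (0.92 to 1.21), Ldha at 1.17 (0.91 to 1.44) and Pkm at 0.80 (0.56 to 1.06). Slc2a1 was at 0.72 (-0.08 to 1.54), Hk2 at 0.53 (-0.06 to 1.14), Gpi1 at 0.55 (0.25 to 0.85) and Pfkp at -0.43 (-0.92 to 0.05). Pfkfb3 stayed below 0 (-1.11, -1.97 to -0.30), and Hk1, with 33 UMIs in all, was not measured. Hif1a was at 1.22 (0.89 to 1.55), Bnip3 at 2.76 (1.73 to 3.96) and Vegfa at 1.77 (1.22 to 2.35), while Ankrd37 had 35 and 6 UMIs and was not measured. Most of the enzymes were thus higher in Arg1 cells than in monocytes too, by a smaller ratio.

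**Figure D5:**
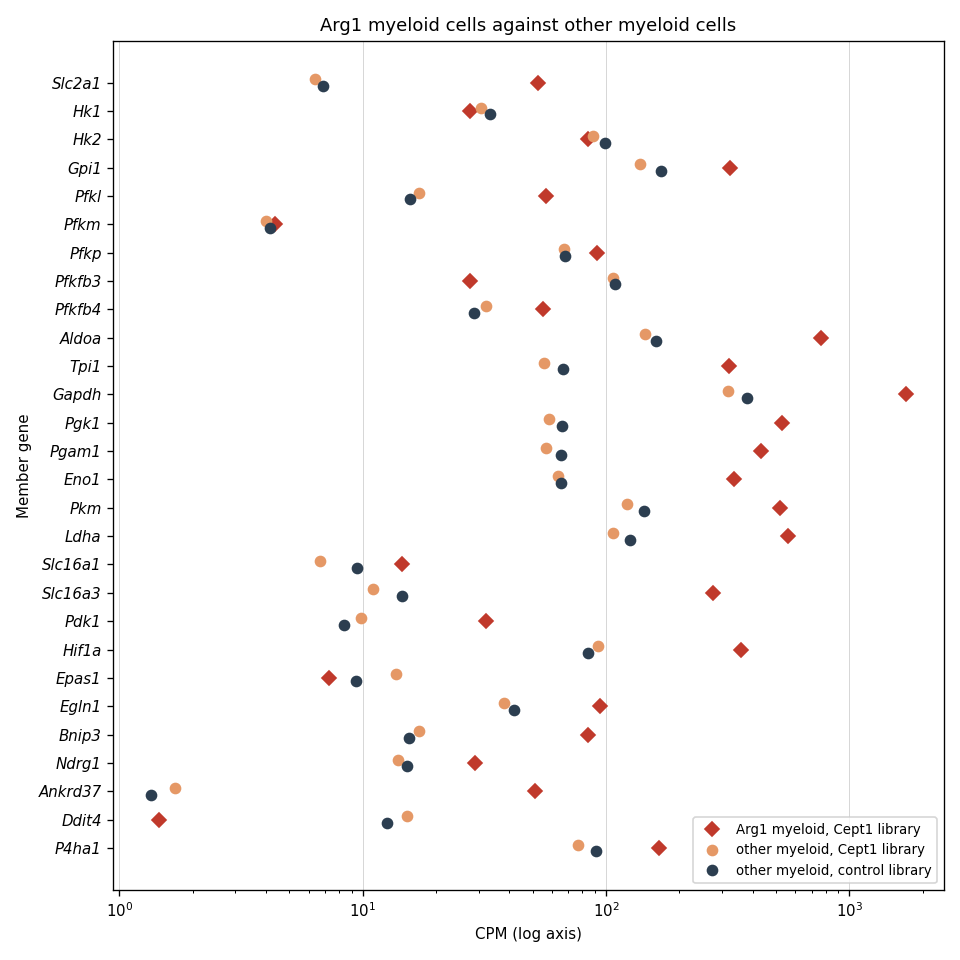
CPM (log axis) of the 28 members with at least 50 UMIs in the 60 Arg1 myeloid cells of the Cept1 library (red diamonds), the other myeloid cells of that library (orange circles) and those of the control library (dark circles). The groups of other myeloid cells lie close together, and Arg1 cells lie to the right for all but Hk1, Hk2, Pfkfb3, Epas1 and Ddit4.

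Resident macrophages, the largest myeloid subtype (1035 and 500 cells), had 26 measured members, 19 lower and 7 higher, with a median of -0.16 and none past the threshold in either direction (5.91% of all measured genes upward and 4.87% downward). The highest was Ddit4 (0.43, 0.00 to 0.88) and the lowest Slc16a3 (-0.45, -1.31 to 0.42). Inflammatory macrophages (360 and 198 cells) had 23 measured members, 6 past the threshold upward (9.39%) and 0 downward (6.45%). Hif1a was the best counted of the 6, at 101 and 71.1 CPM (0.51, 0.25 to 0.78). Epas1 was at 1.03 (0.24 to 1.87) from 52 and 19 UMIs, and at -0.09 with a stricter gate of 90% of marker UMIs. Ndrg1 was at 0.74, with 72.7% of the control UMIs in 1 cell, at 2.45 without the top cells and at 0.31 with the stricter gate. Slc2a1 (0.55), Pfkfb4 (0.54, 0.04 to 1.07) and Pfkl (0.51) made up the rest, and Slc2a1 was at -0.04 with every cell weighted equally. Monocytes (75 cells, and 42 in the control library, under the minimum of 50) had 15 measured members, 2 past the threshold upward (10.4%) and 3 downward (12.6%).

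Neutrophils had higher Hif1a, Slc2a1 and Slc16a3 levels in the Cept1 library. Of 18 measured members, 5 were past the threshold upward (22.9% of all measured genes) and 2 downward (23.8%), shares near those of all genes. Hif1a was at 346 CPM from 202 UMIs and 124 CPM from 96 UMIs (1.48, 1.13 to 1.85), Slc2a1 at 87.5 and 21.9 CPM (2.00, 1.18 to 2.88) and Slc16a3 at 739 and 402 CPM (0.88, 0.66 to 1.09). Tpi1 and Pfkfb4 were both at 0.74 (0.07 to 1.42 and 0.21 to 1.28). Hk2 was at 49.7 and 81.3 CPM (-0.71, -1.40 to -0.05) and Gpi1 at 322 and 473 CPM (-0.55, -0.82 to -0.30). Below the minimum, Egln3 had 19 and 2 UMIs, and Ankrd37 12 and 0.

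The neutrophils of the libraries differed in the share of cells with granule genes of immature neutrophils. Cells with a UMI of the granule genes Ngp or Camp, made by immature neutrophils, were 19 of 124 (15.3%, 9.49 to 22.9, exact binomial interval) in the Cept1 library and 66 of 103 (64.1%, 54.0 to 73.3) in the control library, at median depths of 4225.5 and 6178 UMIs. Cells with a UMI of the mature markers Cxcr2 or Mmp9 were 123 of 124 and 102 of 103, and cells with the early markers Elane or Mpo 0 and 1. Ngp, Camp, Cxcr2 and Mmp9 are also markers of the neutrophil gate, so the gate partly sets these shares. The share with Cxcr2 or Mmp9 therefore cannot show whether maturity differed. In fibroblasts, which lack Ngp and Camp, the shares of cells with a UMI of them were 0.358% and 1.64%. Without those cells, 105 and 37 neutrophils were left, and 9 of 14 measured members were past the threshold upward and 0 downward, where all measured genes gave 15.3% and 23.8%. Hif1a was then at 0.54 (0.07 to 1.04), Slc2a1 at 1.03 (-0.08 to 2.33) and Slc16a3 at 0.37 (0.05 to 0.69), all smaller than before. The enzymes were larger, with Aldoa at 1.06 (0.58 to 1.57), Pgk1 at 1.46 (0.58 to 2.47), Pgam1 at 1.85 (0.73 to 3.22) and Ldha at 1.14 (0.41 to 1.95), from 42, 12, 7 and 18 control UMIs. In all neutrophils, immediate early genes were higher in 16 of 16 (median 0.77), the median mitochondrial share was 3.38% and 1.69%, and summed UMIs of 6 genes of other cell types, haemoglobin included, were 638 and 7921 CPM, or 589 and 3504 CPM without the top cell of each library, which held 56.4% of them in control. The part of these in the neutrophil ratios was not tested.

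B cells had lower levels of the whole lower glycolysis group in the Cept1 library. All 7 genes were below 0, also after median-of-ratios scaling, and 6 of them past the threshold on summed UMIs, with summed levels of 558 and 926 CPM. Of 18 measured members, 2 were past the threshold upward (9.14% of all measured genes) and 9 downward (15.8%), with a median of -0.49 against -0.05. Tpi1 was at 16.9 and 34.6 CPM (-1.03, -1.95 to -0.22), Aldoa at 88.4 and 168 CPM (-0.93, -1.30 to -0.57), Gapdh at 246 and 419 CPM (-0.77, -0.99 to -0.56) and Eno1 at 41.2 and 65.6 CPM (-0.67, -1.24 to -0.14). Without the 5% of barcodes with most UMIs, Tpi1 was at -0.29 and Gapdh at -0.42, inside the threshold. Over the alternatives Tpi1 reached -2.37, Aldoa -1.94 and Gapdh -1.38. The highest were P4ha1 (0.89, 0.06 to 1.68, 21 and 42 UMIs), Hk1 (0.70), Pfkfb3 (0.16) and Hif1a (0.12). Proliferation genes were lower as well, 5 of 5 measured, with a median of -2.80 and summed levels of 77.5 and 315 CPM. Immediate early genes were higher in 15 of 16, with a median of 0.76 and summed levels of 4466 and 2955 CPM. Summed UMIs of 7 genes of other cell types, haemoglobin and neutrophil S100 genes included, were 368 and 4294 CPM, or 295 and 3204 CPM without the top cells. Their part was not tested.

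In Schwann cells all 9 measured members were lower, 5 past the threshold (17.3% of all measured genes) and 0 upward (15.1%), with a median of -0.53. Ndrg1 was at 642 CPM from 176 UMIs and 1317 CPM from 485 UMIs (-1.04, -1.29 to -0.79), Ldha at 51.1 and 109 CPM from 14 and 40 UMIs (-1.09, -2.08 to -0.18), Tpi1 at -0.82 (-1.77 to 0.05) and Ldhb at 186 and 307 CPM (-0.72, -1.23 to -0.23). The highest were Aldoa (-0.22) and P4ha1 (-0.36). These rest on 58 and 69 cells, and Ldha was at -0.47 under the stricter cell filter. RNA of 7 genes of other cell types was at 5440 and 1738 CPM, with 79.2% of the former in 1 cell, and at 1153 and 1270 CPM without the top cells. Among them the fibroblast gene Dcn was at 448.5 and 1565 CPM.

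T or NK cells were mixed, with 12 of 23 measured members higher and 11 lower. Past the threshold were 3 upward (13.6% of all measured genes) and 1 downward (8.45%). Ndrg1 was at 1.66 (1.04 to 2.29), but 57.4% of its 47 UMIs in the Cept1 library came from 1 cell and without the top cells it was at 0.57. Ddit4 was at 33.5 and 18.0 CPM (0.89, 0.35 to 1.43), Pfkp, the platelet phosphofructokinase, at 139 and 87.3 CPM (0.67, 0.42 to 0.92) and Epas1 at 6.16 CPM from 9 UMIs and 14.0 CPM from 62 UMIs (-1.18, -2.38 to -0.17). Egln1 was at -0.49, Pdk1 at -0.47 (-0.87 to -0.09) and Hif1a at -0.31 (-0.57 to -0.05). On summed UMIs Hif1a was above 0 in endothelial cells, fibroblasts and smooth muscle. It was near 0 in endothelial cells and fibroblasts under alternative weights. Immediate early genes were higher in 16 of 18 (median 0.88, summed 4261 and 2984 CPM). Proliferation genes were higher in 7 of 7 (median 0.52, summed 775 and 528 CPM), and RNA of 7 genes of other cell types was at 3274 and 1940 CPM (2169 and 1095 CPM without the top cells). The part of these was not tested. Mast cells (35 and 37) and mesothelial cells (23 and 15) were too few for ratios of members to be given.

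Some members overlap neighbours on the other strand, and whether reads were shared was not measured. Ankrd37 lies at chr8:45996902-46005707 (GRCm38, minus strand) and overlaps Ufsp2 and Lrp2bp on the other strand. Slc16a3 (chr11:120948480-120960868), Pgk1 (chrX:106187100-106203699) and Ddit4 (chr10:59949669-59951834) overlap no annotated gene on the other strand. Gapdh, Eno1, Aldoa, Pkm, Pgk1, Ldha and Tpi1 are known to have processed copies in the genome, so their counts are uncertain to an extent not measured here.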

How the data were processed

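Single-cell RNA sequencing (10x Genomics 3′ v3) of dissociated mouse aorta was analysed in 2 libraries, 1 per genotype. Per the file headers, Cell Ranger 7.2.0 wrote the deposited matrices, which hold whole-number UMI counts without normalization. Seurat and the build mm10 appear in the submitters' processing notes. Nothing states the annotation, or whether introns or strand were used in counting. Cells needed 500 genes or more and a mitochondrial share of 10% or less. A cell entered a class with at least 3 UMIs over at least 2 markers of the class and 75% of all lineage marker UMIs (subtypes 2 UMIs and 60%). Myeloid cells with at least 2 Arg1 UMIs were set apart first. No doublet caller was run. Gates that require 1 lineage, and an alternative without the 5% of barcodes with most UMIs, were the only treatment of doublets.

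Counts were summed per class and library and divided by the class total. Ratios carry an exact 95% Clopper-Pearson interval of the split of UMIs, which treats UMIs as independent and covers counting error only. With 1 library per group there is no test. The 31 members and the gene lists were chosen with earlier results of these data known. Of the 2 features named Aldoa, the one with 39712 UMIs was used and the one with 9 was not. A naming rule covered Cept1 and the 4 highest and 4 lowest measured members of each class. It also allowed every measured member in endothelial, myeloid and Arg1 myeloid cells, and the highest and lowest class of a member's levels. Of each pathway list it covered the 3 highest and 3 lowest genes in endothelial and Arg1 myeloid cells. Not every value that this rule allows is printed, so those shown are a selection. The value of 1 gene that this rule names is not reported here. A few other members, such as Hif1a in T or NK cells, were named after their values were seen. Alternatives changed the cell filter, the gate, the scaling (median of ratios) and the weights of cells and subtypes, or left out Arg1 cells, adipocyte-marked cells, shared barcodes, the highest cell of a gene or neutrophils with Ngp or Camp. The code was tested on simulated data. Python 3.11.15, numpy 2.4.6, scipy 1.17.1, pandas 2.3.3 and matplotlib 3.10.9 were used, with gene positions from GENCODE M21 (GRCm38).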

Additional observations from a re-analysis of the deposited data

Results flagged for a closer look

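For 7 members the ratio of Cept1 over control library was past 0.5 upward in one lineage and downward in another. None of these differences was tested, since each group is 1 library. Under alternatives above, Slc2a1 and Pfkfb4 in smooth muscle, Tpi1 in B cells, Slc16a3 in neutrophils and in endothelial cells, and Epas1 in myeloid cells came inside 0.5. Slc2a1 was at 2.00 in neutrophils and -0.54 in smooth muscle, a difference of 2.54. Pfkfb4 was at 0.74 in neutrophils and -0.71 in smooth muscle, a difference of 1.45. Tpi1 was at 0.74 in neutrophils and -1.03 in B cells, a difference of 1.77. Slc16a3 was at 0.88 in neutrophils and -0.68 in endothelial cells, a difference of 1.56. Epas1 was at 0.53 in myeloid and -1.18 in T or NK cells, a difference of 1.71. Ndrg1 was at 1.66 in T or NK cells, largely from 1 cell, and -1.04 in Schwann cells, a difference of 2.70. Ddit4 was at 0.89 in T or NK cells and -0.69 in fibroblasts, a difference of 1.59.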

How the results depend on the processing

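No paired analysis was possible because each group is 1 library. The median of Arg1 myeloid cells between libraries was not run, as the control library had 2 such cells, and the comparison within the Cept1 library was added after seeing the data, as were the alternatives that left out the highest cell of a gene or neutrophils with Ngp or Camp. Of the summary values under alternatives, 88 stayed close to the main value and 8 moved. In endothelial cells the 5 members past 0.5 downward became 2 under a stricter cell filter (1000 genes, 5% mitochondrial), 3 without the 5% of barcodes with most UMIs and 3 with arterial, capillary and venous cells weighted equally. The 0 members upward became 1 under that filter, with the 90% gate and with equal subtypes. The myeloid median of 0.00 was 0.32 with 5 subtypes weighted equally. That weighting gives a whole subtype's weight to the 2 Arg1 cells of the control library and to 9 and 19 dendritic cells. The Arg1 median of 1.72 was 1.17 against monocytes. Of 104 named ratios, 23 turned sign under at least 1 alternative (33 values in all), and of the 44 past 0.5, 27 came inside it under at least 1. The 7 sign turns of ratios past 0.5 follow. Epas1 in inflammatory macrophages was at -0.087 with the 90% gate, and Slc2a1 there at -0.042 with cells weighted equally. Hk2 in capillary cells was at -2.75 without the 5% of barcodes with most UMIs, -0.48 with cells weighted equally and -1.26 without its highest cell. Slc16a1 in endothelial cells was at 0.071 with equal subtypes, where venous cells held only 2 and 1 of its UMIs. Slc16a3 in myeloid cells was at -0.40 without Arg1 cells. The cause was not tested, except that 1 cell held most Hk2 UMIs and Arg1 cells 51.1% of the Slc16a3 UMIs. Members with few UMIs are limited by depth.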
